A study of Mus musculus with 6 samples.

Results

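The 10 genes described here code for proteins that hold actin monomers, sever or depolymerize filaments, or bundle them: Pfn1, Cfl1, Cfl2, Dstn, Tmsb4x, Tmsb10, Cap1, Coro1a, Coro1b and Lcp1. They were taken by gene symbol from 23746 gene loci, and all 10 were found in all 6 libraries with status OK and an FPKM (fragment number scaled to transcript length and to the library's total) of at least 1. The libraries came from bone marrow of C57BL/6 mice aged 12 weeks with the genotypes Diap1 -/- (KO), Diap1 +/- (Het) and wild type (WT). Diap1 is an older symbol of the gene for the formin mDia1, which nucleates and elongates unbranched actin filaments. How the allele was made is not stated in the labels. Each genotype is a single pool made from the marrow of 4 mice. Gr1+Mac1+ myeloid cells were taken from each pool with magnetic beads, and what remained was depleted to give the Lin- progenitor fraction. Each genotype and fraction thus had 1 library, and both fractions of a genotype came from the same 4 mice.

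Actin filaments grow from monomers that carry ATP. Profilin exchanges the nucleotide on the monomer and delivers it to formins, while β-thymosins hold monomers in reserve and keep them from adding to filaments. Cofilins and destrin sever ageing filaments and free monomers, cyclase-associated proteins recycle those monomers, coronins modulate Arp2/3 complexes and cofilin, and L-plastin cross-links filaments into bundles. In neutrophils and monocytes these proteins serve migration, adhesion and phagocytosis.

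Tmsb4x and Tmsb10 had unlike ratios between fractions despite their close kinship, so their coding sequences are shown whole, in mouse GRCm38 (mm10) from GENCODE M21. Capitals mark the bases that differ between them.
Tmsb4x: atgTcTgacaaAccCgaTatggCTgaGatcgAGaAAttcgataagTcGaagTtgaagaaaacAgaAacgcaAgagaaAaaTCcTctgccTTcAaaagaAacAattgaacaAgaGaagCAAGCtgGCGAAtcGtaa
Tmsb10: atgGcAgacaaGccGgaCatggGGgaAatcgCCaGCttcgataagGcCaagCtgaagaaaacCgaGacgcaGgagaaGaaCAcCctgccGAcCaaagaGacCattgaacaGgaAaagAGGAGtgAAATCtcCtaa
Both code for 44 amino acids. The sequences differed at 40 of 135 bases, with an identity of 70.4%, and their longest shared run was 10 bases. Tmsb4x lies on the X chromosome (X:167207094-167209218, minus strand) and Tmsb10 on chromosome 6 (6:72957347-72958748, minus strand).

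The 3 genes of the cofilin family are shown by their first 30 coding bases from the same annotation, because these hold the switch by which LIM kinases turn the proteins off. Capitals mark the codon of the serine that is phosphorylated.
Cfl1: atggccTCTggtgtggctgtctctgatggt
Cfl2: atggcaTCTggagttacagtgaatgatgaa
Dstn: atggccTCAggagttcaggttgcggatgaa
All 3 genes held a serine codon at this place. Over the whole coding sequence, identity was 71.5% between Cfl1 and Cfl2, 68.6% between Cfl1 and Dstn, and 66.8% between Cfl2 and Dstn, with shared runs of at most 20 bases. Cfl1 lies at 19:5490455-5494031 (plus strand), Cfl2 at 12:54858819-54862877 (minus) and Dstn at 2:143915331-143943324 (plus). Coro1a and Coro1b, at 7:126699774-126704754 (minus) and 19:4148663-4154035 (plus), had a coding identity of 67.0%. Pfn1 lies at 11:70651847-70654650 (minus), Cap1 at 4:122859228-122885881 (minus) and Lcp1 at 14:75131123-75230842 (plus).

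Stretches shared with other annotated genes make some of these values uncertain. Tmsb10 had stretches of at least 100 bases at 95% identity or more in 6 other genes, 5 of them pseudogenes, and the longest covered 413 bases, or 59.9% of its transcript, at 99.0%. Cfl1 had such a stretch of 498 bases in the pseudogene Gm6180. Coro1b shared 432 bases with Ptprcap on the same strand, Cap1 shared 129 with Ppt1, and Lcp1 shared 314 with Gm15628. Ptprcap overlaps the Coro1b locus and Gm15628 the Lcp1 locus, so these stretches need not be separate copies. Genes on the other strand overlap Cfl1 (Snx32), Cfl2 (1700081N11Rik), Coro1a (Bola2), Coro1b (Rps6kb2) and Lcp1, and the sources do not say whether counting used strand, so fragments of such pairs cannot be told apart. No such stretch was found for Pfn1, Cfl2, Dstn, Tmsb4x or Coro1a.

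Diap1 itself was at 4.07, 34.1 and 57.1 FPKM in KO, Het and WT Gr1+Mac1+ cells and at 6.07, 24.2 and 36.0 FPKM in KO, Het and WT Lin- cells. Its order thus follows the labels. The interval widths imply 8633860 to 11603200 fragments in a Gr1+Mac1+ library and 9427480 to 10394500 in a Lin- library. Mac1 (Itgam), on which the myeloid fraction was selected, had 293, 311 and 293 FPKM in KO, Het and WT Gr1+Mac1+ cells. Kit, a receptor of progenitors, was at 14.9 to 15.7 FPKM in Gr1+Mac1+ and 66.4 to 84.7 FPKM in Lin- libraries. One library stood apart: 13 neutrophil genes summed to 107 FPKM in KO, 8648 in Het and 72.7 in WT Lin- cells. In the Gr1+Mac1+ libraries they summed to 146021 to 175105 FPKM. They are called granule genes below, although S100a8 and S100a9 among them code for cytosolic proteins. In Het Lin- cells S100a8 was at 2935 FPKM and S100a9 at 2934 FPKM, the largest parts of that sum. Both fractions held erythroid markers, summing over 12 genes to 2870.3 to 4958 FPKM in Gr1+Mac1+ and 4254 to 5257 FPKM in Lin- libraries. These sums rest on different genes. Hbb-b1 alone was at 2527 to 4311 FPKM in Gr1+Mac1+ libraries, whereas Car1 was at 31.3 to 54.5 FPKM there and 1423 to 1522 FPKM in Lin- libraries. Of the 12 genes, 8 were lower, 2 higher and 2 not called in Gr1+Mac1+ cells, with a median log2 ratio of -2.73. The Lin- fraction also held stromal markers (398 to 765 FPKM over 8), and the Gr1+Mac1+ fraction held B lineage markers (323 to 379.7 over 9). The stromal sum rests on Col1a1, Col1a2, Bglap and Sparc, each at 60.7 to 296 FPKM in Lin- libraries. Col3a1, Pdgfrb, Cxcl12 and Cdh5 were at 0.0583 to 4.25 FPKM there, and Cdh5 was higher in Gr1+Mac1+ libraries (0.722 to 0.912 FPKM). Megakaryocyte and platelet markers summed over 10 genes to 252 to 503 FPKM in Lin- and 41.8 to 56.9 FPKM in Gr1+Mac1+ libraries. T and NK cell markers summed over 10 genes to 201 to 226 FPKM in Gr1+Mac1+ and 40.5 to 50.7 FPKM in Lin- libraries. Nkg7 alone was at 129 to 151 FPKM in Gr1+Mac1+ and 26.7 to 31.8 FPKM in Lin- libraries. Of these 10 genes, 9 were higher in Gr1+Mac1+ cells, Cd3g among them at 1.33-fold. The other, Cd3e, was not called (limma adjusted p = 0.497). Of 9 progenitor genes tested, 4 were lower and 3 higher in Gr1+Mac1+ cells, and the 3 tested genes of the Gr1 and Mac1 gate were all higher. The part of these other cells in the fraction differences was not tested.

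**Figure D1:**
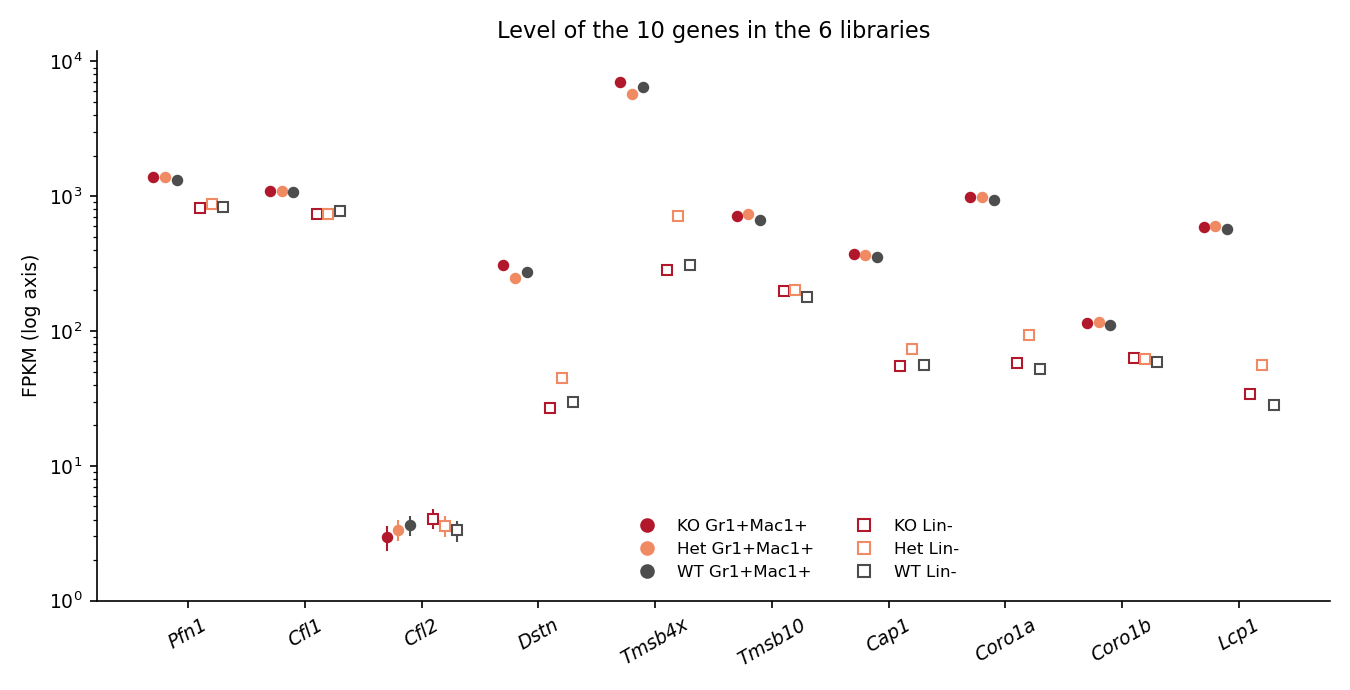
FPKM of each member in the 6 libraries on a log10 axis, with 1 point for each library and the deposited 95% interval as a bar (counting error only). All members but Cfl2 sit higher in all Gr1+Mac1+ libraries than in any Lin- library, and Cfl2 lies between 2.96 and 4.07 FPKM.

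Between fractions, 9 of the 10 members were higher in Gr1+Mac1+ cells and 1, Cfl2, was not called. The difference was widest for Tmsb4x (16.1-fold), Lcp1 (15.1-fold) and Coro1a (14.6-fold) and small for Pfn1 (1.62-fold) and Cfl1 (1.45-fold). The background was high as well, since 30.4% of 11489 loci tested were higher and 51.6% were lower at a limma Benjamini-Hochberg adjusted p under 0.05. After rescaling by the median ratio of all loci, these shares were 39.5% and 38.6%, and again 9 members were higher. Rescaling used FPKM without a pseudocount and moved the log2 ratio of Pfn1 from 0.70 to 1.09. Before rescaling, the median log2 ratio of FPKM + 1 over all loci was -0.33. The median log2 ratio of the members was 2.21. Folds below are on the log2(FPKM + 1) scale, and each p-value rests on 3 pools, 1 of each genotype, so their spread holds any genotype effect too. In such bulk samples, fewer cells of a type and less RNA per cell cannot be told apart.

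Among monomer binders, Tmsb4x had the highest level and the widest difference. It was at 7000.0, 5770.6 and 6438 FPKM in KO, Het and WT Gr1+Mac1+ cells, against 283, 712 and 309.8 FPKM in KO, Het and WT Lin- cells. The fractions did not overlap, and the Het Lin- library was the highest of its fraction. The mean was 6403 ± 615 FPKM in Gr1+Mac1+ and 435 ± 240 FPKM in Lin- cells (SD, n = 3 pools each), a log2 ratio of 4.00 (SE 0.34) or 16.1-fold (limma adjusted p = 0.000469). Its fold was 24.7 in the KO pool, 8.09 in the Het pool and 20.7 in the WT pool, and 22.6 without the Het pool. Tmsb4x ranked 7th, 9th and 10th by FPKM in the KO, Het and WT Gr1+Mac1+ libraries and 264th, 137th and 251st in the KO, Het and WT Lin- libraries.

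Tmsb10, the other main β-thymosin, differed less. It was at 709.8, 736 and 669 FPKM in KO, Het and WT Gr1+Mac1+ cells and at 199.6, 202 and 179 FPKM in KO, Het and WT Lin- cells. The Het Lin- library was here level with the KO Lin- library. The log2 ratio was 1.86 (SE 0.06), 3.63-fold (limma adjusted p = 0.000109), and the folds in the KO, Het and WT pools were 3.54, 3.63 and 3.72.

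Pfn1, the monomer binder that feeds formins, was abundant in both fractions. It was at 1397, 1381 and 1323 FPKM in KO, Het and WT Gr1+Mac1+ cells and at 823, 875 and 827 FPKM in KO, Het and WT Lin- cells. The groups did not overlap, although the difference was small, 1.62-fold with a log2 ratio of 0.70 (SE 0.07, limma adjusted p = 0.00088). Cap1, which recharges monomers released by cofilin, was at 370.1, 369 and 351 FPKM in KO, Het and WT Gr1+Mac1+ cells and at 54.7, 73.7 and 56.2 FPKM in KO, Het and WT Lin- cells. Its log2 ratio was 2.56 (SE 0.10), 5.88-fold (limma adjusted p = 0.000109).

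In the severing family, Cfl1 and Dstn were higher in Gr1+Mac1+ cells by very different amounts. Cfl1, the main cofilin of non-muscle cells, was at 1087, 1093 and 1077 FPKM in KO, Het and WT Gr1+Mac1+ cells and at 737, 733 and 776 FPKM in KO, Het and WT Lin- cells. That was 1.45-fold, a log2 ratio of 0.54 (SE 0.07, limma adjusted p = 0.00199). Dstn, or destrin, was at 308, 247 and 272 FPKM in KO, Het and WT Gr1+Mac1+ cells and at 26.9, 44.7 and 29.7 FPKM in KO, Het and WT Lin- cells. The Het library was the lowest of the Gr1+Mac1+ and the highest of the Lin- libraries. Dstn had a log2 ratio of 3.02 (SE 0.21), 8.12-fold, with an adjusted p of 0.000271 by limma.

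Cfl2, the cofilin best known from muscle, was near the lower end of what the libraries resolve, with 92 to 153 implied fragments. It was at 2.96, 3.36 and 3.63 FPKM in KO, Het and WT Gr1+Mac1+ cells and at 4.07, 3.61 and 3.33 FPKM in KO, Het and WT Lin- cells. The fractions overlapped, and the log2 ratio was -0.11 (SE 0.12, limma adjusted p = 0.417). It changed sign after rescaling by the median ratio, to 0.19, and without the KO pool, to 0.0078.

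Both coronins were higher in Gr1+Mac1+ cells, the blood-cell form by much more than the widely expressed form. Coro1a, the coronin of haematopoietic cells, was at 993, 988 and 945 FPKM in KO, Het and WT Gr1+Mac1+ cells and at 58.1, 93.8 and 52.0 FPKM in KO, Het and WT Lin- cells. Its log2 ratio was 3.87 (SE 0.17), 14.6-fold (limma adjusted p = 0.000116). Coro1b, the widely expressed form, was at 115, 117 and 110.3 FPKM in KO, Het and WT Gr1+Mac1+ cells and at 63.1, 62.3 and 59.0 FPKM in KO, Het and WT Lin- cells. That was 1.84-fold, a log2 ratio of 0.88 (SE 0.06, limma adjusted p = 0.000203). Ptprcap, which shares sequence with Coro1b, was at 44.6, 47.1 and 38.8 FPKM in KO, Het and WT Gr1+Mac1+ cells and 36.9, 32.5 and 36.8 FPKM in KO, Het and WT Lin- cells, and its part in the Coro1b values was not tested.

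Lcp1, which codes for L-plastin, the bundling protein of leukocytes, was at 593, 598 and 574 FPKM in KO, Het and WT Gr1+Mac1+ cells. In KO, Het and WT Lin- cells it was at 34.2, 56.4 and 28.3 FPKM. The fractions did not overlap, and the Het library was again the highest of the Lin- libraries. The log2 ratio was 3.92 (SE 0.19), 15.1-fold (limma adjusted p = 0.000128), with 16.9-fold in the KO pool, 10.4-fold in the Het pool and 19.6-fold in the WT pool. The members Tmsb4x, Lcp1, Coro1a, Dstn, Cap1 and Pfn1 had their smallest fold in the Het pool. Without that pool their folds were 22.6, 18.2, 17.3, 9.94, 6.41 and 1.65.

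**Figure D2:**
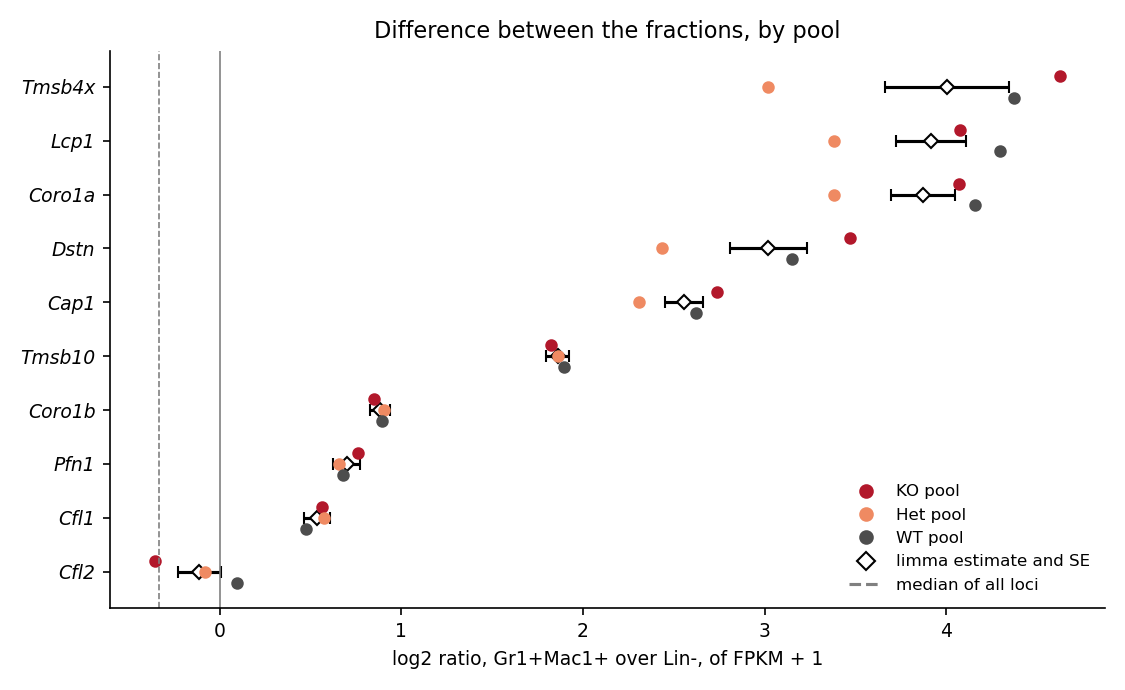
Log2 ratio of Gr1+Mac1+ over Lin- for each member in the 3 pools, with the limma estimate and its standard error. The estimates are 4.00, 3.92 and 3.87 for Tmsb4x, Lcp1 and Coro1a and 0.70 and 0.54 for Pfn1 and Cfl1, and the Het pool is the lowest of the 3 for Tmsb4x, Lcp1, Coro1a, Dstn, Cap1 and Pfn1.

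Because the members of a family differed unequally, the makeup of each family differed between fractions. Tmsb10 made up 9.21%, 11.3% and 9.41% of the summed FPKM of both thymosins in KO, Het and WT Gr1+Mac1+ cells, against 41.4%, 22.1% and 36.7% in KO, Het and WT Lin- cells. Dstn made up 22.0%, 18.4% and 20.1% of its family in KO, Het and WT Gr1+Mac1+ cells, against 3.50%, 5.72% and 3.67% in KO, Het and WT Lin- cells. Coro1a held 81.6%, 80.4% and 81.1% of all coronin FPKM in KO, Het and WT Gr1+Mac1+ cells and 30.7%, 41.8% and 28.7% in KO, Het and WT Lin- cells. Every one of these shares was apart between fractions in all 3 pools, and the Het Lin- library lay nearest to the Gr1+Mac1+ libraries each time. Lcp1 was at least 95.6% of the plastins and Pfn1 at least 99.8% of the profilins in every library. With 3 pairs the two-sided exact permutation test cannot go below p = 0.25, which each share reached.

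**Figure D3:**
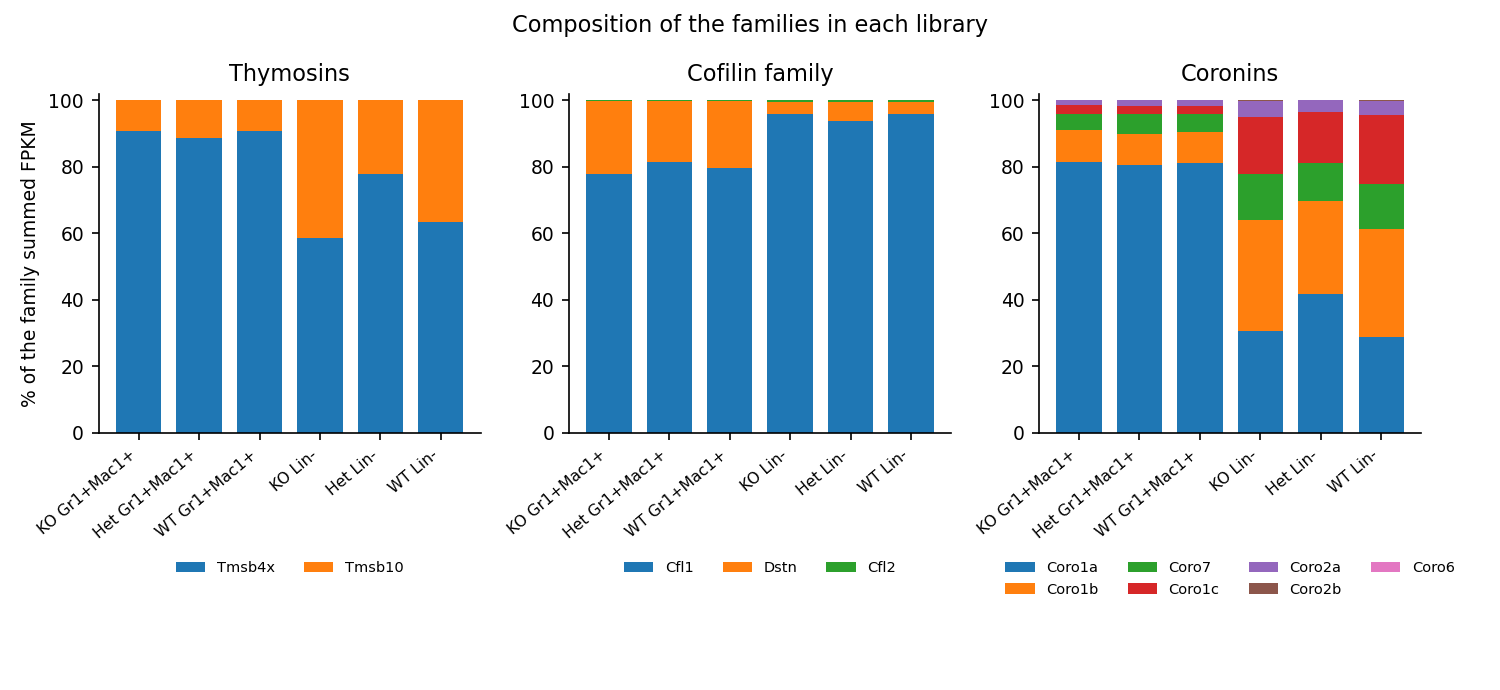
Share of the summed FPKM of each family in the 6 libraries, in percent, for thymosins, the cofilin family and coronins. Coro1a fills about 81% of the coronin bar in Gr1+Mac1+ libraries and 28.7% to 41.8% in Lin- libraries.

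The actins gave a scale for these levels. Actb was at 3482, 3494 and 3248 FPKM in KO, Het and WT Gr1+Mac1+ cells and at 988, 1135 and 1095 FPKM in KO, Het and WT Lin- cells, a log2 ratio of 1.67. Actg1 was at 1503, 1501 and 1459 FPKM in KO, Het and WT Gr1+Mac1+ cells and at 396, 508 and 475 FPKM in KO, Het and WT Lin- cells, a log2 ratio of 1.70. These are transcript levels and say nothing of protein.

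Per unit of Actb plus Actg1 FPKM, the members moved to both sides. Thymosins were at 1.55, 1.30 and 1.51 per actin in KO, Het and WT Gr1+Mac1+ cells and at 0.348, 0.556 and 0.312 in KO, Het and WT Lin- cells. Lcp1 averaged 0.120 ± 0.002 per actin in Gr1+Mac1+ and 0.026 ± 0.008 in Lin- cells (SD, n = 3 pools each). Coro1a averaged 0.199 ± 0.001 per actin in Gr1+Mac1+ and 0.044 ± 0.012 in Lin- cells. Pfn1 went the other way, with 0.279 ± 0.002 per actin in Gr1+Mac1+ and 0.551 ± 0.038 in Lin- cells. The cofilin family did so too, with 0.279 ± 0.009 per actin in Gr1+Mac1+ and 0.515 ± 0.039 in Lin- cells. Thymosin FPKM per Pfn1 FPKM was 5.52, 4.71 and 5.37 in KO, Het and WT Gr1+Mac1+ cells, against 0.586, 1.04 and 0.591 in KO, Het and WT Lin- cells. Each of these ratios had an exact two-sided permutation p of 0.25, the smallest for 3 pairs.

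Genes that work with the members were taken from lists of actin regulators and are given as counts. Of 6 tested cofactors of cofilin, twinfilins and glia maturation factors, 4 were higher and 2 lower in Gr1+Mac1+ cells, with a median log2 ratio of 2.19. Cotl1, a coactosin that binds filaments, was at 396 ± 12.9 FPKM in Gr1+Mac1+ and 29.0 ± 12.4 FPKM in Lin- cells (SD, n = 3 pools), a log2 ratio of 3.80. Wdr1, which helps cofilin disassemble filaments, was higher by 1.73, Gmfg by 2.83 and Twf2 by 2.65 on the log2 scale. Gmfb (-0.46) and Twf1 (-0.34) were lower. After rescaling by the median ratio of all loci, Gmfb was at -0.09 and Twf1 at 0.01, neither was called, and the list held 4 higher and 0 lower.

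Of 8 kinases and phosphatases that set cofilin phosphorylation, 4 were higher, 2 lower and 2 not called, with a median log2 ratio of 0.37. The slingshot phosphatase Ssh2, which activates cofilin, had 22.0 FPKM in Gr1+Mac1+ and 5.15 FPKM in Lin- cells on average. The kinases Tesk2, with 15.5 FPKM in Gr1+Mac1+ and 1.41 FPKM in Lin- cells, and Limk2, with 13.5 FPKM in Gr1+Mac1+ and 7.88 FPKM in Lin- cells, act on cofilin in the opposite sense and were also higher. Limk1 had a log2 ratio of 0.02 and was not called. After rescaling by the median ratio 5 were higher, with Limk1 at 0.34 (limma adjusted p = 0.0471), and 1 was lower.

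Of 8 bundlers other than Lcp1, 7 were higher and 1 lower, with a median log2 ratio of 1.59. Of the 7, Eps8, Marcks and Tagln averaged under 1 FPKM in Lin- cells and were tested only through their level in Gr1+Mac1+ cells. Actn1 was at 98.7 ± 8.19 FPKM in Gr1+Mac1+ and 5.75 ± 4.12 FPKM in Lin- cells (SD, n = 3 pools), a log2 ratio of 4.05. Its paralog Actn4 was lower, at 71.8 ± 4.87 FPKM in Gr1+Mac1+ and 105 ± 7.63 FPKM in Lin- cells, with a log2 ratio of -0.54. That call was lost after rescaling by the median ratio (-0.16, limma adjusted p = 0.0943). Lasp1 (log2 ratio 2.83) and Tagln2 (0.56) were higher. Of 3 other coronins tested, Coro7 (1.29) and Coro2a (1.15) were higher and Coro1c (-0.16, limma adjusted p = 0.0852) was not called. Coro1c changed sign and was called higher after rescaling (0.22, limma adjusted p = 0.0414).

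In the gelsolin family 4 of 5 tested genes were higher and 1, Scin, was lower, with a median log2 ratio of 1.39. Scin averaged 0.724 FPKM in Gr1+Mac1+ and 3.43 FPKM in Lin- cells and was tested only through the level in Lin- cells. Capg, which caps filaments in macrophages, averaged 189.8 FPKM in Gr1+Mac1+ and 32.5 FPKM in Lin- cells. Gsn was not tested because its status was FAIL in the Het and WT Gr1+Mac1+ libraries. Of 8 barbed-end cappers and related genes, 5 were higher, 2 lower and 1 not called, and after rescaling Add1 (-0.28) was no longer among the lower ones (0.11). Capzb had 233 FPKM in Gr1+Mac1+ and 125 FPKM in Lin- cells, and Add2, an adducin of the red cell membrane skeleton, had 9.96 FPKM in Gr1+Mac1+ and 92.9 FPKM in Lin- cells. Of the paralogs of the profilins and thymosins, Tmsb15b1 and Tmsb15l alone reached a mean of 1 FPKM over the libraries. Both did so through Gr1+Mac1+ cells, so no direction is read from them. Of the actins 4 of 4 tested were higher.

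Loci whose profile over the 6 libraries lay nearest to a member were found by the root mean square difference of centred log2(FPKM + 1) values among 6014 loci. For Coro1a the nearest was another member, Lcp1, at 0.05, followed by Gas7 and Prtn3 at 0.06. For Lcp1 they were Coro1a at 0.05 and Pygl and Cotl1 at 0.07. For Pfn1 they were Npepps at 0.02 and Pnpla7 and Acaa1a at 0.03, and for Cfl1 Usp22 at 0.02 and Preb and Fam98c at 0.03. Tmsb4x had no neighbour closer than 0.11 (Lin28a, Prom1 and Tlr13), each of which averaged under 1 FPKM in Lin- cells. Gas7, named for Coro1a, did so too, with 21.1 FPKM in Gr1+Mac1+ and 0.612 FPKM in Lin- cells. All of these reached the mean of 10 FPKM needed here only through Gr1+Mac1+ cells. Such nearness over 6 libraries is a description.

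Between genotypes no test was possible, with 1 library in each group. In its place a threshold of size was used. A member passed it when log2(FPKM + 1) differed by 2-fold or more, the higher library had 5 FPKM or more, and the deposited 95% intervals were apart. Standard errors of these log2 ratios come from the intervals and cover counting error only.

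KO cells had no member past the size threshold against WT in either fraction. In Gr1+Mac1+ cells 0 of 10 members passed for KO against WT, where 0.0444% of 11270 loci were higher and 0.0976% lower. The members lay close together, with log2 ratios of -0.22 to 0.18 and a median of 0.07, against a median of 0.01 over all loci, and 9 of 10 ratios were above 0 (51.8% of loci). Intervals were apart for 6 members, all higher in KO (10.8% of loci had intervals apart): Dstn by 0.18 (SE 0.03), Tmsb4x by 0.12 (SE 0.01), Pfn1 and Cap1 by 0.08, Coro1a by 0.07 and Lcp1 by 0.05. Intervals are narrower for abundant genes, so ratios this small can be apart for Tmsb4x and overlap for Cfl2 (-0.22, SE 0.14). Erythroid markers moved with genotype in this fraction, summing to 2870.3 FPKM in KO, 4443 in Het and 4958 in WT Gr1+Mac1+ cells, and all 12 were below WT in KO. Their part in these small ratios was not tested.

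In Lin- cells 0 of 10 members passed for KO against WT as well, where 0.137% of 10952 loci were higher and 0.0365% lower. Lcp1 was at 34.2 FPKM in KO (deposited 95% interval 32.5 to 36.0) and 28.3 in WT Lin- cells (26.7 to 29.9), 21.0% higher with a log2 ratio of 0.27 (SE 0.05). In the same comparison 7 of 7 tested monocyte markers were above WT (median log2 ratio 0.49), as were 9 of 13 granule genes (0.34). Of the granule genes, Mmp8 (0.789 and 0.359 FPKM in KO and WT Lin- cells), Mmp9 (0.275 and 0.275) and Cd177 (0.193 and 0.234) were near the floor. They passed the filter only through the Het Lin- library. The part of these markers in the Lcp1 value was not tested. Cfl1 was at 737 FPKM in KO and 776 in WT Lin- cells, a log2 ratio of -0.08 (SE 0.02). These were the only members with intervals apart, with 13.5% of loci as background, and 5 of 10 ratios were above 0 (50.7% of loci). Tmsb4x (-0.13, SE 0.05), Dstn (-0.14, SE 0.08), Coro1a (0.16, SE 0.06) and Tmsb10 (0.15, SE 0.07) had overlapping intervals. Of the other actin genes listed, Tmod1, a pointed-end capper, passed with 5.36 FPKM in KO and 2.04 FPKM in WT Lin- cells. Actb (-0.15) and Actg1 (-0.26) had log2 ratios below 0.

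In Het Lin- cells Tmsb4x was more than 2-fold above WT, and 5 other members lay above WT with intervals apart. Tmsb4x was at 712 FPKM in Het (deposited 95% interval 691 to 734) and 309.8 in WT Lin- cells (296 to 324), a log2 ratio of 1.20 (SE 0.04), and was the 1 member past the threshold, where 1.3% of 10956 loci were higher and 0.0639% lower. Lcp1 had a log2 ratio of 0.97 (SE 0.05), Coro1a 0.84 (SE 0.06), Dstn 0.58 (SE 0.07) and Cap1 0.39 (SE 0.05). Pfn1 (0.08) was above WT and Cfl1 (-0.08) below it, also with intervals apart. Thus 6 members were higher and 1 lower by intervals, against 14.6% of loci with intervals apart in either direction, and 9 of 10 ratios were above 0 (49.9% of loci). At a 1.5-fold threshold Lcp1 and Coro1a passed too. Among listed partners Actn1 had 10.4 FPKM in Het and 4.37 FPKM in WT Lin- cells, Cotl1 had 43.1 FPKM in Het and 20.1 FPKM in WT Lin- cells, and Gsn had 18.6 FPKM in Het and 7.36 FPKM in WT Lin- cells, all past the threshold.

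KO against Het in Lin- cells shares the Het library with that comparison. Tmsb4x had a log2 ratio of -1.33 there and was the 1 member past the threshold, where 0.0913% of 10953 loci were higher and 1.16% lower. Dstn (-0.71), Lcp1 (-0.70), Coro1a (-0.68), Cap1 (-0.43) and Pfn1 (-0.09) were lower with intervals apart, against 11% of loci, and 3 of 10 ratios were above 0 (49.7% of loci). Actn1 (-1.70) and Gsn (-1.02) passed the threshold as well.

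The Het Lin- library also held the granule transcripts described above, and the members can be set beside them. The excess of Het over WT Lin- cells, as a percentage of the WT Gr1+Mac1+ level, was 5.50% for the 13 granule genes summed, with a range of 5.15% to 5.80% and a median of 5.60% over the single genes. The same quantity was 6.25% for Tmsb4x, 5.53% for Dstn, 4.99% for Cap1, 4.90% for Lcp1 and 4.43% for Coro1a. It was 3.65% for Pfn1, 3.37% for Tmsb10, 2.96% for Coro1b and -3.98% for Cfl1, and 1.24% for Actb and 2.27% for Actg1. These percentages are not like for like, because the genes start from unlike WT Lin- levels. The granule genes summed to 72.7 FPKM in WT Lin- and 156029 FPKM in WT Gr1+Mac1+ cells. Pfn1 had 827 FPKM in WT Lin- and 1323 FPKM in WT Gr1+Mac1+ cells, and Tmsb10, Coro1b and Cfl1 also had a larger part of their level in Lin- cells. In KO Lin- cells the granule genes were at 0.02%. There Tmsb4x, Dstn, Cap1, Lcp1, Coro1a and Pfn1 lay between -1.03% and 1.04%. The other members were farther from 0 in KO, with 3.03% for Tmsb10, 3.70% for Coro1b and -3.69% for Cfl1, as were Actb at -3.27% and Actg1 at -5.40%. For Tmsb10, Coro1b and Cfl1 the KO and Het values were thus alike in sign and size. Itgam, a gate marker, was at 1.31 FPKM in KO (status FAIL), 16.9 in Het and 0.640 in WT Lin- cells. All 13 granule genes were at 1 FPKM or more in the Het Lin- library, against 10 in the KO and 10 in the WT Lin- libraries, and none was at 0. Markers of other cells were also above WT in Het Lin- cells. Monocyte markers summed to 43.8, 57.2 and 27.8 FPKM in KO, Het and WT Lin- cells, and 7 of 7 tested were above WT in Het (median log2 ratio 0.73). Megakaryocyte and platelet markers summed to 252, 503 and 368 FPKM in KO, Het and WT Lin- cells, with 10 of 10 above WT in Het (median 0.44) and 10 of 10 below Het in KO. Of B lineage markers 4 of 4 tested were above WT in Het (median 0.95), and of stromal markers 5 of 6 (0.76), while 2 of 8 T and NK cell markers were. Vpreb3, Gp6 and Gzma, which are in these counts, reached a mean of 1 FPKM in Lin- cells only through the Het library. They were at 3.07, 3.22 and 2.15 FPKM there and each under 1 FPKM in KO and WT Lin- cells. The filter thus fixed their direction. The part of any of these transcripts in the members' values was not tested.

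**Figure D4:**
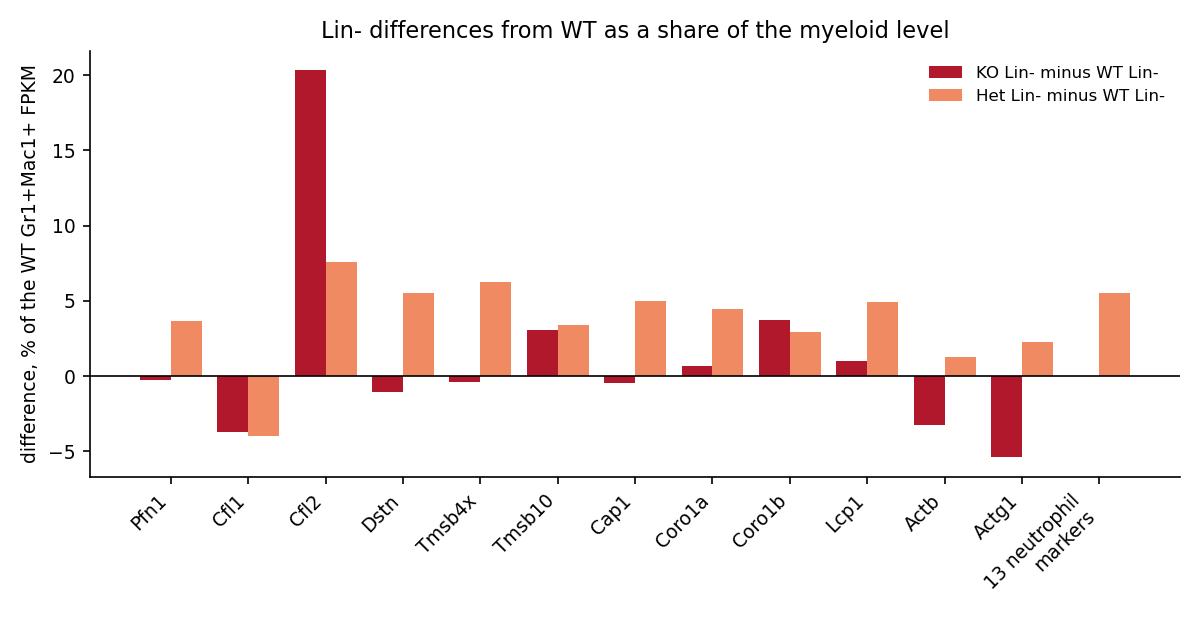
Difference from WT in Lin- cells as a percentage of the WT Gr1+Mac1+ level, for KO and Het, by member and for the 13 granule genes summed. In Het the granule genes are at 5.50% and Tmsb4x, Dstn, Cap1, Lcp1 and Coro1a at 4.43% to 6.25%, and Cfl2, at 2.96 to 4.07 FPKM in all libraries, has 20.3% in KO and 7.55% in Het.

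In Gr1+Mac1+ cells 0 of 10 members passed for Het against WT, where 0.0355% of 11274 loci were higher and 0.0976% lower. Tmsb4x (-0.16) and Dstn (-0.14) were below WT with intervals apart, and 5 members, Tmsb10 (0.14) among them, were above, where 16.8% of loci had intervals apart. In all 7 of 10 ratios were above 0 (49.8% of loci). For KO against Het in the same cells 0 of 10 members passed, where 0.0621% of loci were higher and 0.071% lower. Dstn (0.32) and Tmsb4x (0.28) were the 2 members with intervals apart, both higher in KO (18.6% of loci had intervals apart), and 5 of 10 ratios were above 0 (50.8% of loci).

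Tmsb4x is X-linked, and the sex of the pooled mice is not labelled. Xist, transcribed from the inactive X of female cells, was at 19.9, 18.0 and 27.1 FPKM in KO, Het and WT Gr1+Mac1+ cells and at 38.7, 34.9 and 54.2 FPKM in KO, Het and WT Lin- cells. Eif2s3y, a gene of the Y chromosome, had 16.4, 13.7 and 10.8 FPKM in KO, Het and WT Gr1+Mac1+ cells, so all pools held RNA of both sexes. The part of the sex mix in the Tmsb4x values was not tested.

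**Figure D5:**
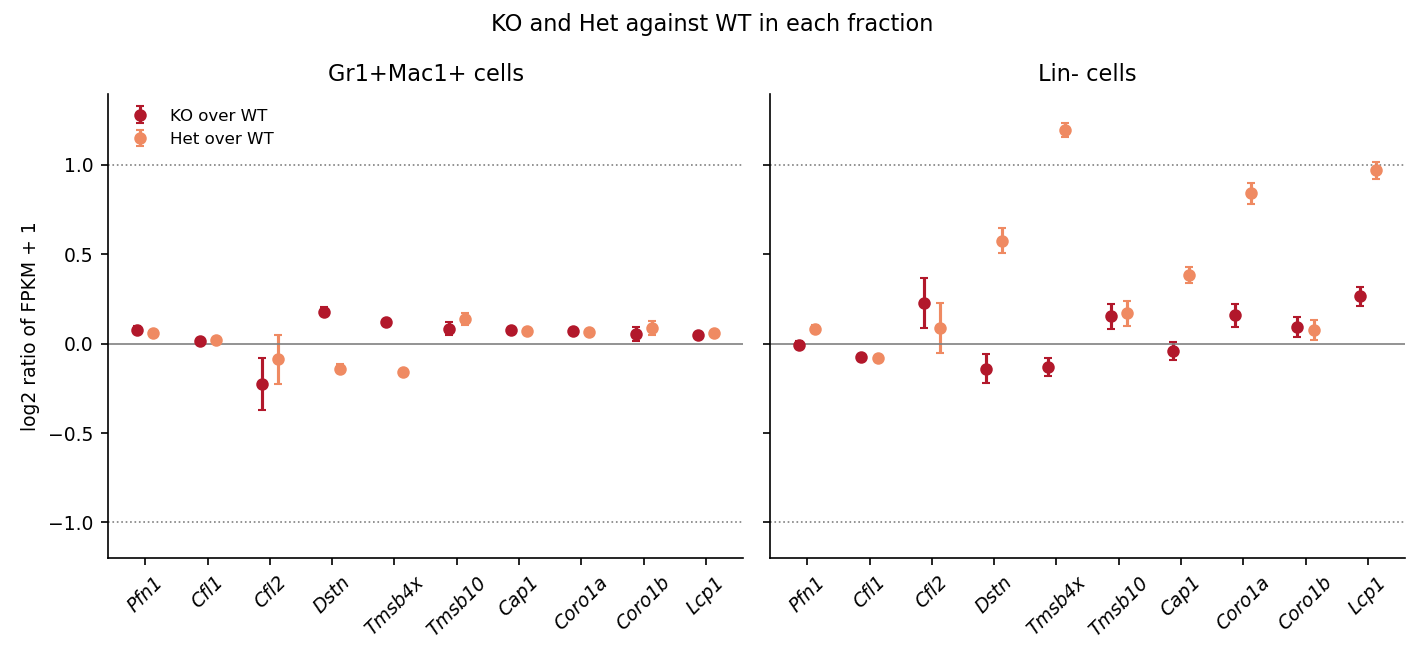
Log2 ratio of FPKM + 1 for KO over WT and Het over WT, by member, in Gr1+Mac1+ cells (left) and Lin- cells (right), with bars of 1 counting standard error and dotted lines at 2-fold. Ratios in Gr1+Mac1+ cells lie between -0.22 and 0.18, while in Lin- cells Tmsb4x is at 1.20 and Lcp1 at 0.97 for Het over WT.

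Promoters were searched for the CArG box of serum response factor, a factor that many actin genes use. RefSeq windows (GRCm38.p6) from 250 bases before to 50 after the start were found for 9 members, Coro1b having none listed. On both strands 0 of 9 held the box, against 1.81% of 27025 genes, and the actin gene Actg1 held 1 at -90 from its start. The purine-rich motif GAGGAA, sought on both strands, was in 2 of 9 windows, those of Cap1 and Cfl2, against 31.25% of genes. A match or its absence describes only the letters of these windows.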

How the data were processed

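The authors deposited FPKM values in 1 table for each of 6 libraries, per the file headers, and each of 23746 loci carries a status and 95% bounds. The submitters' processing notes name TopHat2 2.0.7, Cufflinks 2.0.2 and the build mm10, without their roles. Because FPKM is relative to the library's total, the most abundant genes weigh on all others: the top 10 made up 25.1% to 27.8% of it in Gr1+Mac1+ and 8.72% to 10.5% in Lin- libraries.

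Fragment numbers were inferred from the interval widths; they were whole within 0.05 for 62.8% to 64.0% of loci under 50 fragments. The bounds cover counting error only.

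For the fractions, limma 3.58.1 with trend (R 4.3.3) was run on log2(FPKM + 1) over 11489 loci with a mean of at least 1 FPKM and status OK in all libraries, with the pool as block and Benjamini-Hochberg adjustment over all of them. The labels' protocols take both fractions from the same mice, which is the source of the pairing. Deviations of a pool's fractions from the fraction means correlated across loci by -0.01 (KO), -0.06 (Het) and 0.10 (WT). Genotypes were compared by size only, over loci with a mean of at least 1 FPKM in the fraction; passing also needed status OK in both libraries. Family shares were tested with an exact permutation test that flips the signs of the 3 pairs. The limma fit and the size threshold were tested on simulated data. The limma simulation shifted both fractions of a pool alike, so it does not cover a shift in a single fraction. The simulation for the size threshold held counting error only.

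The members and gene lists were chosen with earlier results of these data known. Named were the members, Diap1, the actins Actb and Actg1, Xist, 3 nearest profiles for each of 5 members, and of each other list up to 4 of the most abundant genes and those past the size threshold. Itgam, Kit, Eif2s3y, Ptprcap, Scin, Limk1, Gmfb, Twf1, Add2, Eps8, Marcks and Tagln were added after their values were seen. So were Mmp8, Mmp9, Cd177, Vpreb3, Gp6, Gzma, Hbb-b1, Car1, Nkg7, Cd3e, Cd3g, S100a8 and S100a9. The same holds for Col1a1, Col1a2, Bglap, Sparc, Col3a1, Pdgfrb, Cxcl12 and Cdh5.

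Alternatives were pseudocounts of 0.1 and 5, a mean of at least 5 FPKM, no filter on low values, rescaling by the median ratio, a 1.5-fold threshold, no interval criterion, no trend, no block and leaving out a pool. Scripts ran in Python 3.11.15 with pandas 2.3.3, numpy 2.4.6 and, for figures, matplotlib 3.10.9.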

Additional observations from a re-analysis of the deposited data

Results flagged for a closer look

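Tmsb4x and Dstn had opposite directions in the fractions, with deposited intervals apart in both. For Het against WT, Tmsb4x had a log2 ratio of -0.16 in Gr1+Mac1+ and 1.20 in Lin- cells, and Dstn had -0.14 in Gr1+Mac1+ and 0.58 in Lin- cells. For KO against Het, which shares the Het libraries, Tmsb4x had 0.28 in Gr1+Mac1+ and -1.33 in Lin- cells, and Dstn had 0.32 in Gr1+Mac1+ and -0.71 in Lin- cells. With 1 library in each group these differences were not tested.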

How the results depend on the processing

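Between fractions 9 members were called under every alternative run on them, and 97 of 99 log2 ratios kept their direction and their side of the threshold. The filters on low values, the trend and the block do not enter a log2 ratio. Under those alternatives only the adjusted p could move, so the count overstates how far directions were tried. The fit with no replicate block called 9 members too, and leaving out each pool in turn also gave 9. The exceptions were both Cfl2, which was never called. Its log2 ratio was 0.19 after rescaling by the median ratio (adjusted p = 0.204, limma), and from -0.22 (without the WT pool) to 0.0078 (without the KO pool); the adjusted p ranged from 0.204 to 0.960 over the alternatives, and the cause was not tested. The highest adjusted p over the alternatives was 0.0174 for Cfl1, 0.00885 for Pfn1 and 0.00474 for Tmsb4x. Between genotypes all 420 alternative ratios moved by less than their 95% counting interval, but many of them could not move. Only the pseudocounts and the rescaling enter a ratio, and the other alternatives change only which loci are kept or pass. The largest median log2 ratio removed by rescaling was 0.0073, for KO against WT in Gr1+Mac1+ cells. The count of 420 is therefore no measure of robustness. At 1.5-fold in place of 2-fold, 3 members passed for Het against WT in Lin- cells and 4 for KO against Het, against 1 each in the main comparison. The count of all loci above WT in Het Lin- cells was 142, and it was 86 with a pseudocount of 5, 91 with a mean of at least 5 FPKM and 240 at 1.5-fold. In KO against Het the 127 lower loci were 80, 82 and 220 under the same settings. With 1 library in each group and genotype, no spread between mice is known.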
